A study of Mus musculus with 8 samples.

Results

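The mitochondrial ribosome, or mitoribosome, translates the few messenger RNAs of the mitochondrial genome, which encode core subunits of the respiratory chain and of ATP synthase. All of its proteins are encoded in the nucleus, made in the cytosol and imported, and they are named Mrpl in the large subunit and Mrps in the small subunit. Some descend from proteins of the bacterial ribosome, and others were added in mitochondria. Among the cells of skin and the tissue under it, muscle fibres are especially rich in mitochondria.

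These genes were followed in skin of near naked hairless mutant mice aged 7 days and of wild type mice of the same age. Near naked hairless is a mutation of the hairless locus with sparse hair. RNA of a mutant and of a wild type sample was hybridized together on each of 8 spotted 2-colour arrays. The design states 5 biological replicates, all of 1 litter, without tying animals to arrays. No label used here gives the strain, the sex, any pooling or the body site. Mutant RNA was labelled with Cy5 on arrays 2, 4, 6 and 7, and with Cy3 on arrays 1, 3, 5 and 8. Some arrays therefore share an animal, and p-values over 8 arrays are smaller than 5 animals would give. Values are log2 ratios of mutant over wild type. The base of 2 and this direction are assumed readings of the table, which no label states. A reading as Cy5 over Cy3 on every array is also possible and is given further below. Under the opposite direction every sign would turn.

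Members were the rows whose RefSeq accession maps to a mouse gene named Mrpl or Mrps with a number, and which had values on at least 3 arrays. Of 78 such genes in the table of gene names, 33 had a row and 31 qualified, among 21766 probes and 6510 named genes in all. Each member had 1 probe. By name, the 31 comprised 20 genes of the large subunit and 11 of the small subunit. Mrpl54 lay just inside the limit with 3 values (-0.77, -0.58 and 0.69). Outside it were Mrpl23, with 2 values (-0.35 and 0.08), and Mrps31, with 1 (0.89). An array gave a value for between 19 and 31 of the 31 members, and for between 42.7% and 92.6% of all probes. Values on all 8 arrays were held by 11 of the 31 members (35.5%), against 24.6% of the probes with at least 3 values. The file gives ratios without intensities, so RNA levels of skin markers could not be read. Precision rests on the number of arrays and on the spread between them. In whole skin, fewer cells of a type and less RNA per cell cannot be told apart.

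The mutant skin had slightly lower ratios for most of these genes, and 1 of them passed the test. The fit needed 3 or more values in each of the dye orientations (4 arrays each). Of the 20 members that met this, 14 had fitted ratios below 0 and 6 above. Their median was -0.19, against 0.05 for all 11974 probes tested, of which 45.0% were below 0. Without array 8 the median was -0.08, with 11 of the 20 below 0, against 0.07 for all probes. Mrpl40 was lower past the threshold (adjusted p below 0.05 in limma), and no member was higher. Among all probes 3.53% were lower and 0.676% higher past that threshold, so that 1 of 20 is near the background. At an unadjusted p below 0.05 there were 6 lower and 2 higher members of 20, against 10.3% lower and 10.2% higher among all probes. No member outside these 20 was part of the test, so the count speaks only of genes with few missing values.

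**Figure D1:**
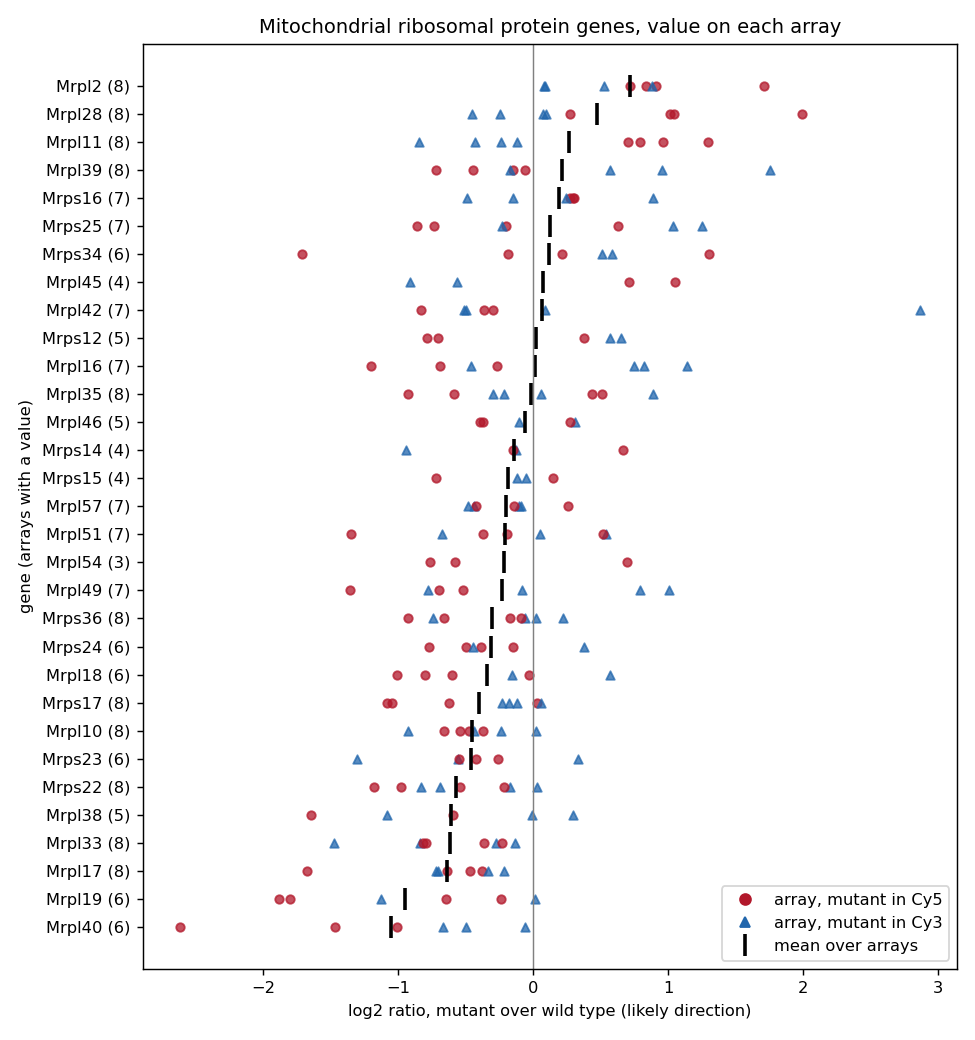
Log2 ratio of mutant over wild type (horizontal axis) of the 31 mitochondrial ribosomal protein genes, 1 point per array, with circles for mutant RNA in Cy5, triangles for mutant RNA in Cy3 and bars for the mean over arrays. Mrpl40, Mrpl17 and Mrpl33 have every point below 0 and Mrpl2 has every point above 0, while the points of most genes lie on both sides.

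Mrpl40 is a protein of the large subunit without a bacterial counterpart, and its human gene lies in the region deleted in DiGeorge syndrome. It had values on 6 arrays, from -2.62 on array 2 through a median of -0.84 to -0.06 on array 1. All 6 values lay below 0, with means of -1.70 ± 0.83 (SD, n = 3) for the mutant in Cy5 and -0.41 ± 0.32 (n = 3) for the mutant in Cy3. The fitted ratio was -1.05 ± 0.25 (SE), a level 2.07-fold lower in the mutant with a 95% interval from 1.41 to 3.05-fold (limma, adjusted p = 0.0436). The call was narrow. It was lost in 7 of the 8 fits that left out 1 array, where the ratio stayed between -1.22 and -0.82 and the adjusted p reached 0.110. Arrays 3 and 7 have no value for Mrpl40, and its ratio was the same without either. The call was kept without array 3 (adjusted p = 0.0423, limma) and lost without array 7 (adjusted p = 0.0640). It was also lost with the 3730 named genes tested alone (adjusted p = 0.0535, limma).

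Beside Mrpl40, Mrpl17 and Mrpl33 were the only members with no value above 0, and Mrpl2 was the only member with no value below 0. Among the 11 members with values on all 8 arrays, the 2 below 0 throughout compare with 3.34% of the 5057 probes with 8 values, and the 1 above 0 throughout with 1.88% of them. The stretches of 250 bases before the transcription start of these 4 genes are shown because they mark both ends of the range of ratios. They were read from RefSeq promoters of GRCm38.p6, and capitals mark matches on either strand to GCATGCGC or GCGCATGC, a core of the site of NRF1, and to CCGGAAG or its reverse CTTCCGG, a core of the site of the ETS factor GABPA. Both factors are known activators of nuclear genes for mitochondrial proteins.
Mrpl40, chr16:18876638-18876887, minus strand: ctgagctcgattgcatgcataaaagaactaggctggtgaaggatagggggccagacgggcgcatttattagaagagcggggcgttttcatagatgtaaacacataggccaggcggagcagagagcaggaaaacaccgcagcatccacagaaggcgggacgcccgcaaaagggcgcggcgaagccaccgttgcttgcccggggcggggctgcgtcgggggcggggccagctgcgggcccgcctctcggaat
Mrpl17, chr7:105811088-105811337, minus strand: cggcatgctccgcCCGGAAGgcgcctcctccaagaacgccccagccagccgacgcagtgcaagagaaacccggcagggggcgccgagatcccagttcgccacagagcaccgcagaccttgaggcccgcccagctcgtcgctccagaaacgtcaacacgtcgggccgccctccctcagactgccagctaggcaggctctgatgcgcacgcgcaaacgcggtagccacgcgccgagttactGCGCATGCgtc
Mrpl33, chr5:31613701-31613950, plus strand: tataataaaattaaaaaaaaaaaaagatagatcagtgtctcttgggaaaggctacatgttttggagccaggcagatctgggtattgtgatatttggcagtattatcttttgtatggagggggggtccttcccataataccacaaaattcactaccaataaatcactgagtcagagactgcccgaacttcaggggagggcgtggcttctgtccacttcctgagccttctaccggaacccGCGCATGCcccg
Mrpl2, chr17:46645971-46646220, plus strand, the first of 3 listed starts: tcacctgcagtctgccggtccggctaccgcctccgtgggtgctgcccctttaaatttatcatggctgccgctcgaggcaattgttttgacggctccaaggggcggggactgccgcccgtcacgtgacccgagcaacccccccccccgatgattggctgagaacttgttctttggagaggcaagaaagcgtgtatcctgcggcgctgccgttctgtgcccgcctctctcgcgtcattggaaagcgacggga

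The NRF1 core lay at bases -11 to -4 before the start of Mrpl17 and at -12 to -5 before that of Mrpl33, counted back from the base next to the start. Mrpl17 also held the GABPA core at -237 to -231. Neither core was in the windows of Mrpl40 and Mrpl2. Of the 27 members with a promoter in the RefSeq table, 4 held the NRF1 core (Mrpl10, Mrpl17, Mrpl33 and Mrpl39), or 14.8%, against 2.56% of 27025 genes with windows of the same length. The GABPA core was in 5 (Mrpl17, Mrpl18, Mrpl51, Mrps16 and Mrps22), or 18.5%, against 7.83%. A core of the YY1 site, AAGATGGC or GCCATCTT, was in 1 (Mrps12), or 3.70%, against 1.83%. These matches describe letters alone. Among the 4 genes with the NRF1 core, Mrpl17, Mrpl33 and Mrpl10 had fitted ratios below 0 and Mrpl39 above, beside 14 of all 20 tested members below 0. A link between the cores and the ratios was not tested.

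In the large subunit, 8 members with a bacterial counterpart were tested, 5 with ratios below 0 and 3 above, and none passed. Mrpl17, a protein near the exit of the peptide tunnel, was lowest on array 2 (-1.67) and highest on array 5 (-0.22), with a median of -0.55. All 8 arrays lay below 0, and the fitted ratio was -0.64 ± 0.19 (SE, limma, adjusted p = 0.0826). Mrpl33 had its lowest value on array 1 (-1.47), its highest on array 8 (-0.14) and a median of -0.58. Both dye orientations were alike in it, with means of -0.55 ± 0.30 (SD, n = 4) for Cy5 and -0.68 ± 0.61 for Cy3, and the fitted ratio was -0.62 ± 0.19 (limma, adjusted p = 0.0980). Mrpl10, which anchors the stalk that recruits translation factors, lay between -0.93 and -0.24 on 7 arrays and at 0.02 on array 1 (fitted ratio -0.45 ± 0.17, adjusted p = 0.158).

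The high end of the range also belonged to large subunit proteins with a bacterial counterpart. Mrpl2, a protein of the core around the peptidyl transferase centre, was at 1.71 on array 2, between 0.52 and 0.91 on arrays 1, 4, 6, 7 and 8, and at 0.08 on both arrays 3 and 5. Every array lay above 0. The fitted ratio was 0.72 ± 0.19, or 1.64-fold with an interval from 1.24 to 2.18-fold, and the adjusted p of 0.0502 in limma lay at the threshold without passing it. Mrpl28 followed at 0.47 ± 0.20 (adjusted p = 0.209), from -0.45 on array 1 to 1.99 on array 2. Mrpl11, a protein at the base of the same stalk as Mrpl10, had a ratio of 0.26 ± 0.17 (adjusted p = 0.409) with 4 arrays above 0 and 4 below. Mrpl10 and Mrpl11 thus had ratios of opposite sign, with 95% intervals from -0.83 to -0.08 and from -0.11 to 0.63. Mrpl16 at -0.08 and Mrpl35 at -0.02 had intervals that span 0.

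Among large subunit proteins added in mitochondria, 5 of 6 tested members were below 0. After Mrpl40 these were Mrpl49 at -0.31, Mrpl57 at -0.19, Mrpl51 at -0.19 and Mrpl42 at -0.01, none past the test. Mrpl57 was the steadiest, with an SD of 0.27 over 7 arrays and values from -0.48 to 0.26. Mrpl42 was the least steady, at 2.87 on array 3 and between -0.83 and 0.09 on the other 6 arrays. Mrpl39 stood at 0.22 ± 0.21 (adjusted p = 0.606), from -0.72 on array 6 to 1.75 on array 5.

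Of the members named for the small subunit 6 were tested, 4 below 0 and 2 above, and none passed. Mrps22, a protein added in mitochondria, lay between -1.18 and -0.17 on 7 arrays and at 0.03 on array 8, with a fitted ratio of -0.57 ± 0.19 (adjusted p = 0.107). Mrps23 stood at -0.46 ± 0.25 with 5 of 6 arrays below 0 (adjusted p = 0.322). Mrps17 stood at -0.40 ± 0.18 (adjusted p = 0.234), and was lowest on arrays 2 and 6 (-1.08 and -1.04). Mrps36, which was named as a ribosomal protein and is now assigned to the 2-oxoglutarate dehydrogenase complex, stood at -0.30 ± 0.18. It is counted with the members by its name. Mrps16 at 0.21 ± 0.21 and Mrps25 at 0.20 ± 0.25 were above 0, with adjusted p of 0.622 and 0.705. Mrps16 was at 0.29, 0.27 and 0.30 on its 3 arrays with the mutant in Cy5, and spread from -0.49 to 0.89 on the others.

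**Figure D2:**
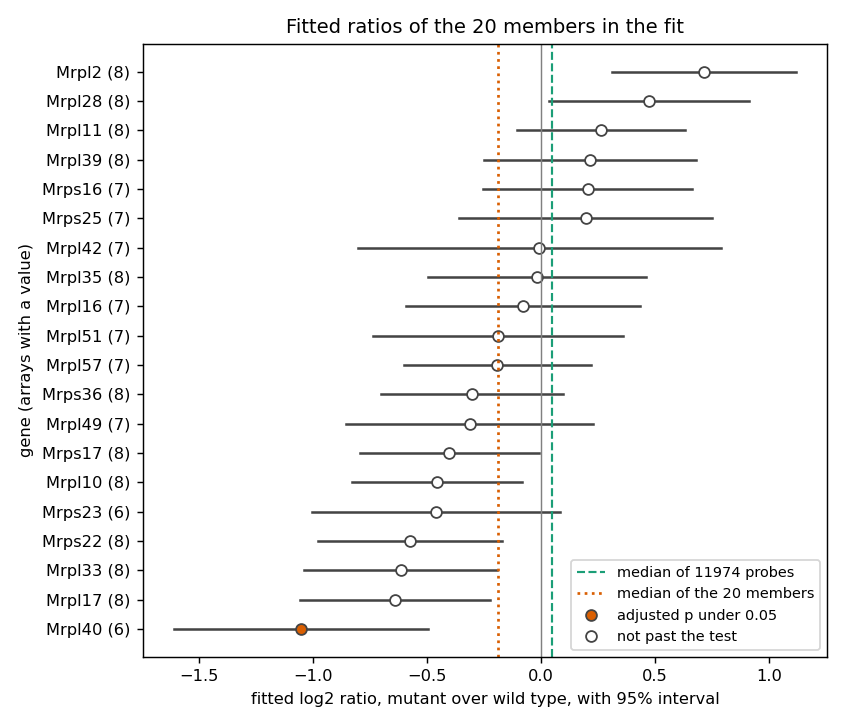
Fitted log2 ratio of mutant over wild type with its 95% interval for the 20 members in the fit, with the number of arrays behind each gene in brackets. Mrpl40 alone is filled as past the test, and the median of the members (dotted, -0.19) lies to the left of that of 11974 probes (dashed, 0.05).

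The other 11 members had too many missing values for this fit. With at least 3 arrays and no dye term, all 31 members could be fitted among 20590 probes. No member passed, at a lowest adjusted p of 0.153 for Mrpl2, against 1.12% of all probes (limma), and 7 members (22.6%) had an unadjusted p below 0.05, against 12.6% of all probes. Of the 31, 20 were below 0 with a median of -0.20, against a median of 0.02 over all probes. Among the 11, 8 were below 0. Mrpl19, a large subunit protein at the interface with the small subunit, was the lowest of them at -0.95 ± 0.30 (SE, 6 arrays, adjusted p = 0.208). It was at -1.80, -1.88 and -1.13 on arrays 2, 4 and 8, at -0.64 and -0.24 on arrays 6 and 7, and at 0.01 on array 5. Mrpl38 followed at -0.61, Mrpl18 at -0.34 and Mrps24 at -0.31, with 4 of 5, 5 of 6 and 5 of 6 arrays below 0. Mrpl54, Mrps15, Mrps14 and Mrpl46 lay between -0.22 and -0.06. Above 0 were Mrps12, the small subunit protein of the decoding centre, at 0.02, Mrpl45, which anchors the ribosome at the inner membrane, at 0.07, and Mrps34 at 0.12. Mrps34 spread most widely, from -1.71 on array 2 to 1.30 on array 4.

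Part of these ratios followed the dye. The dye part is the share of a ratio that turns with the orientation, as fitted beside the genotype, and it was positive where ratios were higher with the mutant in Cy5. It passed for 1 of 20 members, Mrpl11 (0.67 ± 0.17, limma, adjusted p = 0.0450), against 4.45% of all probes with a dye part above 0 and 0.894% with one below 0. Mrpl11 was at 1.29, 0.96, 0.70 and 0.79 on the 4 arrays with the mutant in Cy5 and at -0.24, -0.84, -0.12 and -0.43 on the other 4. Mrpl28 had the same order, with means of 1.08 ± 0.70 and -0.13 ± 0.26 (SD, n = 4 each), and a dye part of 0.61 (adjusted p = 0.0764). The reverse held for Mrpl40 (-0.64, adjusted p = 0.115), Mrpl16 (-0.64), Mrpl39 (-0.56) and Mrpl49 (-0.55). Mrpl16 was at 1.14, 0.82 and 0.74 on arrays 1, 3 and 5 and below 0 on array 8 and on the 3 measured arrays with the mutant in Cy5. In all, 13 of 20 dye parts were below 0, or 65.0%, against 51.2% of all probes. An unadjusted p below 0.05 for the dye part (limma) was held by 30.0% of the members, close to the 31.9% of all probes.

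If the table held Cy5 over Cy3 instead, the dye part would be the genotype ratio. Mrpl11 would then be the 1 called member, as higher in the mutant, and Mrpl40 would stand at -0.64 without passing. Mrpl17 would stand at -0.15, Mrpl33 at 0.06 and Mrpl2 at 0.32. Among all probes, 31.9% had an unadjusted p below 0.05 for the dye part, against 20.5% for the ratio (limma). Past the threshold, 533 probes had a dye part above 0 and 107 below, while 81 had a higher and 423 a lower ratio. Which reading holds was not tested. The directions in the other paragraphs therefore rest on the assumed reading of the table as mutant over wild type on every array.

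**Figure D3:**
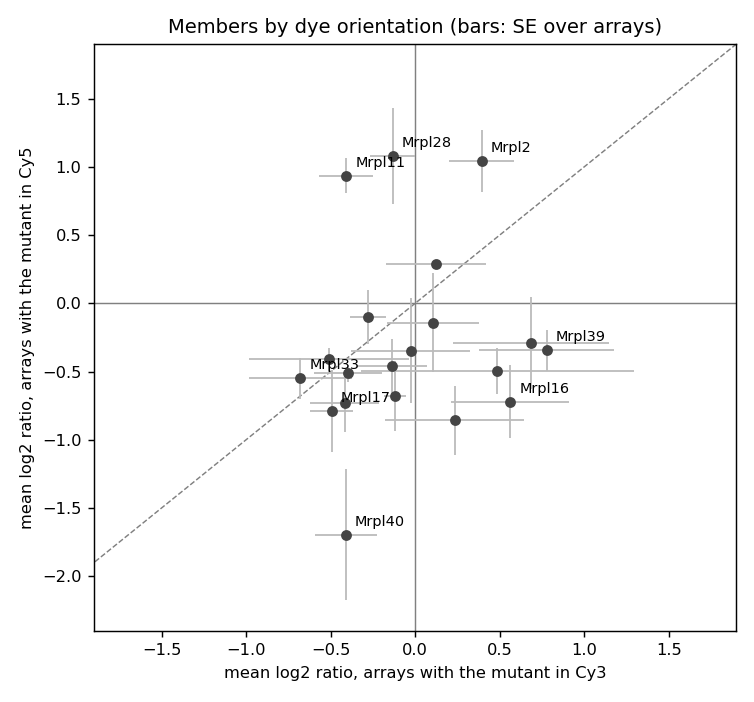
Mean log2 ratio of each of the 20 members on arrays with the mutant in Cy3 (horizontal) and in Cy5 (vertical), with bars of 1 SE over the arrays and a dashed line of equality. Mrpl33 lies near the line, Mrpl2 in the upper right, and Mrpl11 and Mrpl28 far above the line in the upper left.

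Array by array, the members had a median of -0.12, -0.58, 0.08, -0.44, 0.07, -0.38, -0.26 and -0.34 on arrays 1 to 8. It was below 0 on 6 arrays and above on arrays 3 and 5, both with the mutant in Cy3. The mean of these medians was -0.25 ± 0.24 (SD, n = 8), and it was -0.42 ± 0.14 over the 4 arrays with the mutant in Cy5 and -0.08 ± 0.20 over the 4 with the mutant in Cy3. The medians of all probes ran from -0.14 to 0.12. On the 2 arrays with the widest spread, 2 and 3 (SD 1.60 and 1.33 over all probes), the members had SDs of 1.16 and 0.89. Of the members with a value, 81.0% were below 0 on array 2, where 49.1% of all probes were, and 81.5% on array 8, where 57.3% of all probes were. On array 5 the shares were 39.3% and 50.7%. The large and the small subunit had like means of their array medians, at -0.27 ± 0.24 and -0.18 ± 0.32.

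The cytosolic ribosomal protein genes, which make the ribosome outside mitochondria, were read on the same arrays. So were nuclear genes named for the complexes of oxidative phosphorylation, most of which hold products of the mitoribosome. The median fitted ratio was 0.33 over 43 cytosolic genes, of which 36 were above 0, and 0.12 over 28 oxidative phosphorylation genes, of which 16 were above 0. Past the threshold each of these groups had 1 lower and 0 higher genes, as the members did, against 3.53% lower and 0.676% higher among all probes. Array medians were taken over all genes with values on at least 3 arrays, which were 31 mitochondrial, 55 cytosolic and 43 oxidative phosphorylation genes. The array median of the mitochondrial genes lay below that of the cytosolic ones on 6 of 8 arrays, by a mean difference of -0.44 ± 0.39 (SD). The gap was widest on array 4 (-1.11) and absent on arrays 1 and 3 (0.01 and 0.03). Against oxidative phosphorylation the mean difference was -0.24 ± 0.36, also below 0 on 6 of 8 arrays. Read as Cy5 over Cy3, the medians would be -0.15 for the 20 mitochondrial genes (7 above 0), -0.10 for the cytosolic genes (18 above 0 and 25 below) and -0.04 for oxidative phosphorylation (13 above 0 and 15 below), so that most of the gap rests on the reading as mutant over wild type. These differences are descriptions without a test, since the genes were chosen with earlier results of these arrays known.

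**Figure D4:**
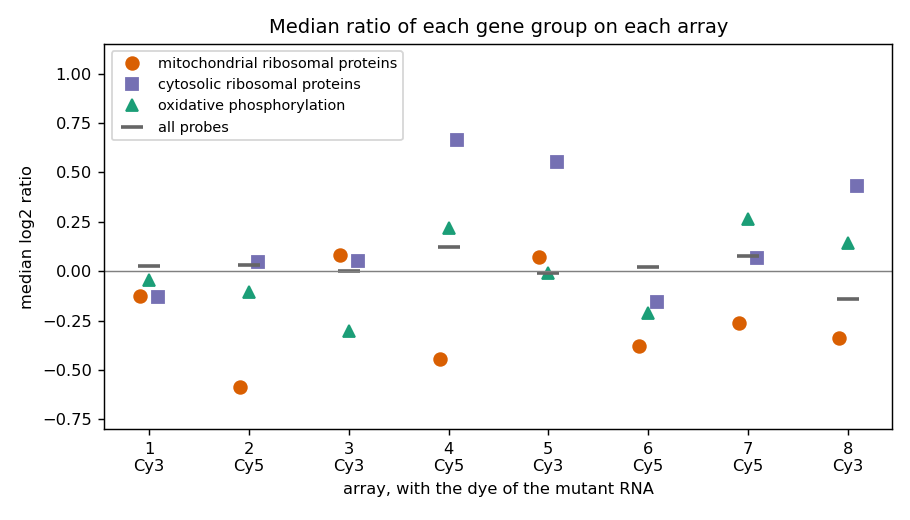
Median log2 ratio of mutant over wild type on each array for the mitochondrial ribosomal protein genes, the cytosolic ribosomal protein genes, the oxidative phosphorylation genes and all probes, with the dye of the mutant RNA under each array number. The gene groups hold 31, 55 and 43 genes in that order. The circles of the mitochondrial group lie below 0 on arrays 1, 2, 4, 6, 7 and 8 and slightly above 0 on arrays 3 and 5.

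Few other genes of mitochondrial gene expression could be followed. Of 105 genes in 6 lists, 24 had a probe named here and 11 were tested, with 9 ratios above 0, 2 below and none past the threshold. Among all 11974 probes tested, 6588 were above 0. Chchd1, a small subunit protein with another name, stood at 0.20, with 4 arrays above 0 and 4 below. Of mitoribosome assembly factors, Noa1, a GTPase of the small subunit's assembly, stood at 0.45 and Mterf3, a factor that binds mitochondrial DNA and RNA, at 0.27. Tfam, which packs mitochondrial DNA and starts its transcription, stood at -0.22 with 5 of 7 arrays below 0. Of 7 genes of protein import 6 were above 0, from Timm8a1 at -0.05 to Timm8b, a chaperone of the intermembrane space, at 1.08 (adjusted p = 0.183). Timm8b had 7 of 8 arrays above 0 and a single value of 5.37 beside a median of 0.54. Hspa9, at 0.72, had a highest value of 6.46 beside a median of 0.08. None of 16 translation factors of mitochondria had a named probe, and of 22 tRNA synthetase genes 1 had a probe and none was tested.

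Markers of cell types that differ in their mitochondria were read beside these values. Of 8 markers of skeletal muscle 5 had a probe and 3 were tested, all with ratios below 0 and none past the test. These were Tnnt3 at -1.23 (limma, adjusted p = 0.0601), Cox7a1 at -0.88 (0.214) and Mb, myoglobin, at -0.53 (0.154). Cox7a1 is also counted among the 28 oxidative phosphorylation genes above. Mb was below 0 on 7 of 7 arrays, Tnnt3 on 7 of 8 and Cox7a1 on 4 of 6. Tnnt3 ran from -3.14 to 1.78, and Cox7a1 had a lowest value of -3.61 beside a median of -0.32. Of 5 adipocyte markers 2 were tested, of which Cfd was higher at 1.96 (limma, adjusted p = 0.00683) and Lep stood at 0.43. Of 6 keratinocyte markers 3 had a probe and 1 was tested, Krt1, which was higher at 1.30 (adjusted p = 0.0179). Of 5 fibroblast markers 2 were tested, of which Vim was higher at 1.17 (adjusted p = 0.00493) and Dcn stood at 0.47. The 2 melanocyte markers tested stood at 0.01 and 0.12, and the 4 immune cell markers ran from -0.74 (Lyz2) to 0.71 (Tyrobp), none past the test. The part of these cell types in the ratios of the mitochondrial ribosomal protein genes was not tested.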

How the data were processed

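The authors deposited a table of log ratios of the 2 channels of each array, taken here as log2 values. Labelling and hybridization followed a standard protocol, per the labels, and image analysis, normalization, filtering and the logarithm's base were not stated there. Of 23232 rows, 864 blank spots, 275 buffer spots and 96 control oligonucleotide spots were left out, and 232 spots of Gapdh were averaged, leaving 21766 probes. By RefSeq accession 6516 probes had 1 mouse symbol (names of GRCm38.p6) and 15250 had none. Probes with 3 or more values in each dye orientation (4 arrays each) were fitted in limma 3.58.1 (R 4.3.3) with a genotype term and a dye term, and p-values were adjusted by Benjamini-Hochberg over 11974 probes at 0.05. The script was tested on simulated data. Alternatives changed centring, normalization, features, filters, the dye term, the direction, array weights and arrays.

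The members and gene lists were chosen with earlier results of these data known, and the cytosolic and oxidative phosphorylation groups were taken by symbol after the values were seen. Genes named with full values were those past the threshold and the 6 highest and 6 lowest fitted members, with the highest and lowest of each other list. Mrpl19 and other members outside the fit, and Hspa9, were named after their values were seen.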

Additional observations from a re-analysis of the deposited data

Results flagged for a closer look

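Of 33 sets of values over arrays, the members with at least 4 values and the array medians of the members and of each subunit, 2 held a value whose gap to its neighbour passed Dixon's 95% limit. About 1 in 20 sets, here 1.65, would do so by chance if values were normal and had the same spread on every array. The spread was not the same, with an SD over all probes from 0.57 on array 5 to 1.60 on array 2. Mrpl17 was at -1.67 on array 2, with its next value at -0.72. Mrpl42 was at 2.87 on array 3, with its next value at 0.09. Arrays 2 and 3 had the widest spread over all probes.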

How the results depend on the processing

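Across 18 alternatives the median of the fitted members was below 0 in all, from -0.30 (values on all 8 arrays) to -0.08 (without array 8, with 11 of 20 below 0), against -0.19. With arrays 4 to 8 alone it was -0.30. In the fits that kept all 20 members, between 11 and 15 of them were below 0. The counts of called members were small and changed with most settings, from 0 higher and 1 lower. Quantile normalization and scaling arrays to equal spread each gave 1 higher (Mrpl2) and 2 lower (Mrpl40 and Mrpl17). Array weights gave 1 higher (Mrpl2) and 4 lower of 20 members, while they called 418 higher and 966 lower of all 11974 probes. Calls among all probes under the other settings are given below. Values on all 8 arrays, which leaves out Mrpl40, gave 1 higher (Mrpl2) and 0 lower, and reading the table as Cy5 over Cy3 gave 1 higher (Mrpl11) and 0 lower. Named genes only, no dye term, at least 3 arrays and no dye term, and arrays 4 to 8 alone each gave 0 lower. Leaving out 1 array gave 0 higher in all 8 fits and between 0 and 1 lower, the 1 being Mrpl40 without array 3, where it has no value. Mrpl2 did not pass in any of these 8 fits, at a lowest adjusted p of 0.0527.

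Of the 12 members at the ends of the range, 4 changed sign, in 2 of the 18 alternatives. Read as Cy5 over Cy3, Mrpl33 was at 0.0647, Mrps23 at 0.0495, Mrps25 at -0.49 and Mrpl39 at -0.56, and with arrays 4 to 8 alone Mrps25 was at -0.10. Of 11974 probes, quantile normalization called 380 higher and 757 lower and array weights 418 and 966, against 81 and 423. Of the same number, equal spread gave 149 and 597, no dye term 19 and 239, and Cy5 over Cy3 533 and 107. Arrays 4 to 8 alone gave 3 and 100 of 10901, and named genes only 25 and 105 of 3730. At least 3 arrays and no dye term gave 12 and 219 of 20590. Values on all 8 arrays gave 130 higher and 257 lower of 5057 probes. Leaving out 1 array gave 17 to 74 higher and 218 to 440 lower of 11974 probes. Beyond the missing arrays and the different probes tested, the cause of these changes was not tested. Each ratio already sets mutant against wild type RNA on the same array. Arrays that share an animal could not be accounted for, because no label says which animals each array holds.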
